A study of Arabidopsis thaliana with 6 samples.

Results

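ER bodies are spindle-shaped compartments of the endoplasmic reticulum (ER) that plants of the mustard order fill with beta-glucosidases. They are constitutive in seedlings and roots, whereas rosette leaves carry few and form more after wounding or jasmonate treatment. When a cell is broken, the stored glucosidase PYK10 meets jacalin-related lectins (JAL) that lie outside the ER body, and the proteins aggregate into what is called the PYK10 complex. The transcription factor NAI1 is needed for ER bodies to form and for the expression of PYK10 and NAI2, and NAI2 is a protein of the ER body itself that is also needed for its formation.

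Transcripts of 7 genes of this system were compared between genotypes: the glucosidase gene PYK10 (AT3G09260, also named BGLU23), NAI1 (AT2G22770), NAI2 (AT3G15950) and the lectin genes JAL22 (AT2G39310), JAL23 (AT2G39330), JAL33 (AT3G16450) and JAL34 (AT3G16460). They were chosen by symbol among probe sets paired with exactly 1 gene, with earlier results of these data known. Each of the 7 had 1 such probe set, so they are 7 of 13356 genes that had a probe set of their own, on arrays with 22746 tested probe sets. RNA came from whole rosette leaves of Arabidopsis thaliana plants 3 weeks old, grown untreated in days of 12 h light and 12 h dark at 23 °C. The 2 groups were wild type (WT) and the atrap mutant, each with 3 Affymetrix arrays from biological replicates by the labels. The labels name neither the allele nor the locus of atrap, nor how many plants went into a sample. RAP (AT2G31890) carries ATRAP among its synonyms, and its transcript read 7.69 ± 0.22 in the WT arrays against 6.53 ± 0.19 in those of atrap (log2, SD, n = 3 each; limma, adjusted p = 0.00741).

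All values are log2 expression values made by the authors with RMA, a method that corrects background, equalises the arrays' distributions and summarises probes. The medians of the 6 arrays ran from 6.50 to 6.57. Precision is limited by the number of arrays, since an array has no sequencing depth. Poly-A spike-in controls, RNAs added during labelling, were lower in every atrap array than in any WT array, at 6.51 ± 0.08 against 6.90 ± 0.16 (mean over 24 probe sets, SD, n = 3 each). The two-sided exact permutation p was 0.1, which is as low as 3 arrays against 3 can go. The 3-prime minus 5-prime difference of an actin control, which reflects RNA integrity and labelling, was 2.29 ± 0.01 for atrap against 2.65 ± 0.04 for WT (log2, SD, n = 3 each; exact permutation p = 0.1). The other actin pair gave 0.997 ± 0.025 for atrap against 1.15 ± 0.07 for WT (exact permutation p = 0.1), and a GAPDH control 0.32 ± 0.05 against 0.34 ± 0.07 (exact permutation p = 0.6). The part of the spike-in and actin differences in the results that follow was not tested. The leaf marker RCA, the activase of Rubisco, read 14.85 to 14.94 on the log2 scale over the 6 arrays. This is near the highest value on any array, 15.01, so RCA is a weak check on differences in leaf material. It was the only one of 8 leaf markers with a probe set of its own gene here.

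Of the 7 genes, 5 were higher in atrap, 1 was lower and 1 did not pass an adjusted p of 0.05 (limma on all 22746 probe sets). PYK10 rose by 6.80-fold, JAL33 by 5.70-fold, JAL22 by 3.53-fold, JAL34 by 3.23-fold and NAI2 by 2.98-fold, while JAL23 was 2.62-fold lower. Across all probe sets tested, 13.1% passed the threshold, with 6.7% higher in atrap and 6.41% lower. Calls that also reached 1 log2 unit were made for 6 of the 7 genes and for 1.75% of all probe sets. The median change was 1.69 log2 units over the 7 genes and 0.03 over all probe sets. WT and atrap arrays did not overlap for any of the 7, a separation shared by 35.6% of all probe sets. Since the 7 genes were chosen with earlier results known, these counts and medians describe them and are no test of the group. Because whole leaves were measured, more cells with a transcript and more transcript per cell cannot be told apart.

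**Figure D1:**
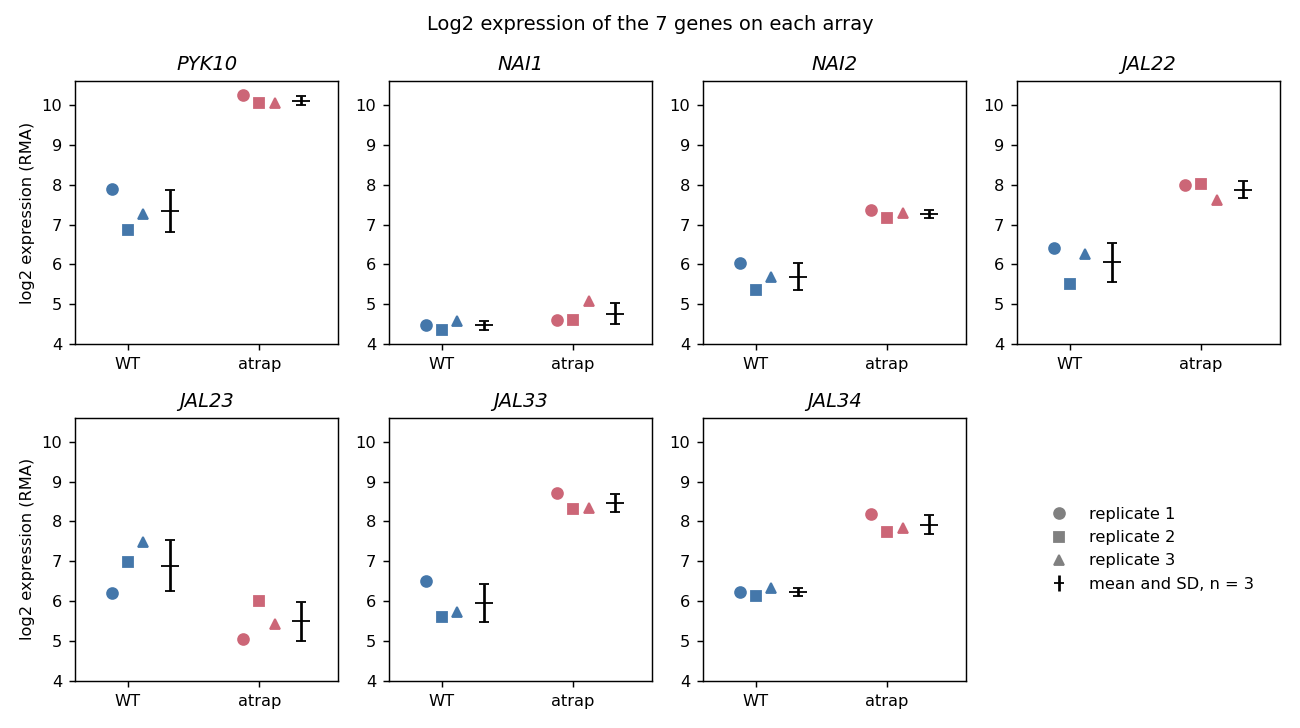
Log2 expression (vertical axis) of the 7 genes in WT (blue) and atrap (red), with 1 point per array, the symbol giving the replicate number, and the mean with its SD (n = 3) in black. The atrap points lie above the WT points for PYK10, NAI2, JAL22, JAL33 and JAL34 and below them for JAL23, while those of NAI1 nearly meet.

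PYK10 encodes the main glucosidase of constitutive ER bodies. Its WT arrays read 7.89, 6.86 and 7.28 and its atrap arrays 10.24, 10.04 and 10.04 (log2, replicates 1 to 3). The lowest atrap array stood 2.15 log2 units above the highest WT array, and the mutant arrays lay within 0.20 of each other against a range of 1.03 in WT. The log2 fold change was 2.77 with a standard error of 0.24 and a 95% interval of 2.21 to 3.32 (limma, adjusted p = 0.00413). Among all 22746 probe sets it had the 3rd highest change.

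Other genes of the beta-glucosidase (BGLU) family were read from a list of 20 made after these data had been seen. Of these, 0 were higher and 1 was lower by limma, against 6.7% higher and 6.41% lower over all probe sets. WT means of 13 of the 20 lay under log2 6, where RMA values compress changes. The gene that fell was BGLU44, by 0.47 on the log2 scale (limma, adjusted p = 0.0393). Changes in this family ran from -0.74 for BGLU47 to 0.28 for BGLU42, and those past an unadjusted p of 0.05 were BGLU25, BGLU33, BGLU42, BGLU44 and BGLU47. On a list of 8 further ER-body genes, only BGLU19 and ATA27 (BGLU20) had a probe set of their own gene, with log2 changes of 0.01 and -0.11 (limma, adjusted p = 0.937 and 0.475). BGLU18, the glucosidase of wound-induced leaf ER bodies, BGLU21, BGLU22 and the membrane proteins MEB1 and MEB2 were not analysed here.

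NAI2 read 6.05, 5.35 and 5.69 in WT and 7.37, 7.17 and 7.28 in atrap (log2). The 3 mutant arrays lay within 0.20 of each other, and the lowest of them was 1.12 above the highest WT array. The change was 1.57 with a standard error of 0.17 and a 95% interval of 1.18 to 1.97 (limma, adjusted p = 0.00581). This was the 47th highest of all probe sets. PYK10 changed by 1.19 log2 units more than NAI2, with no overlap between the groups' within-array differences (exact permutation p = 0.1, two-sided). The WT mean was 5.70 for NAI2 and 7.34 for PYK10, and the part of compression at low signal in this difference was not tested.

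NAI1, which encodes a basic helix-loop-helix transcription factor, had the smallest change of the 7. It read 4.48, 4.36 and 4.57 in WT and 4.61, 4.61 and 5.08 in atrap (log2). The groups were separated by 0.04, and atrap replicate 3 stood above the other mutant arrays. The change was 0.30 with a standard error of 0.14 and a 95% interval of -0.03 to 0.63 (limma, adjusted p = 0.212), so a rise of up to 1.55-fold lies within the interval. Without atrap replicate 3 the change was 0.14 (limma, adjusted p = 0.445). NAI1 read below log2 6 on every array, so a small measured difference does not show an unchanged transcript level.

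The lectin genes changed in both directions. JAL33 read 6.50, 5.61 and 5.73 in WT and 8.72, 8.31 and 8.34 in atrap (log2). Every mutant array exceeded every WT array by at least 1.82, and the change was 2.51 (standard error 0.24; limma, adjusted p = 0.00492). It was the 6th highest of all probe sets. JAL34, the next protein-coding gene after JAL33 in the gene table of assembly TAIR10.1, read 6.22, 6.13 and 6.33 in WT and 8.18, 7.73 and 7.84 in atrap. Its WT arrays had a standard deviation of 0.10, as against 0.48 for JAL33, and its change of 1.69 had a standard error of 0.13 (limma, adjusted p = 0.00349). JAL33 changed by 0.82 log2 units more than JAL34 (exact permutation p = 0.1, two-sided). Both have low WT values near log2 6, as do NAI2 and JAL22, and JAL23 has them in atrap. The changes of these genes may thus be understated by compression, which was not tested.

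JAL22 and JAL23 are close relatives described as inhibitor-type lectins, which limit the size of the PYK10 complex, and AT2G39320 is the single protein-coding gene between them in the gene table. JAL22 read 6.41, 5.50 and 6.26 in WT and 7.99, 8.02 and 7.63 in atrap (log2). All mutant arrays were higher, by at least 1.21, and the change was 1.82 (standard error 0.24; limma, adjusted p = 0.00884). JAL23 read 6.20, 6.97 and 7.47 in WT and 5.05, 6.02 and 5.42 in atrap. All mutant arrays were lower, but the gap between the groups was 0.19 and WT alone spanned 1.27. Its change was -1.39 with a standard error of 0.35 and a 95% interval of -2.21 to -0.57 (limma, adjusted p = 0.0432).

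Whether the fall of JAL23 passed the threshold depended on single arrays, while its change stayed between -1.73 and -1.09 with any 1 left out. The fall did not pass without WT replicate 2 (limma, adjusted p = 0.140), WT replicate 3 (0.0977), atrap replicate 1 (0.139) or atrap replicate 3 (0.122), and the change then ran from -1.35 to -1.09. With those arrays left out in turn, calls over all probe sets also fell, from 2981 to 438, 1260, 350 and 629. The rises of PYK10, NAI2, JAL22, JAL33 and JAL34 passed with any 1 array left out, with adjusted p of at most 0.0488 (limma, for JAL22). Without both WT replicate 3 and atrap replicate 2, an alternative chosen after seeing the data, 6 of the 7 genes and 9.47% of all probe sets passed. With a test that shares no variance between probe sets, 0 of the 7 passed, as did only 48 of all 22746 probe sets (0.21%). The adjusted p of that test ran from 0.0581 for JAL34 to 0.183 for JAL23 among the 6 called by limma. The within-array difference between JAL22 and JAL23 changed by 3.21 log2 units between genotypes, with no overlap (exact permutation p = 0.1, two-sided). In all, 7 such pairs of genes were compared, including PYK10 and NAI2 against NAI1, where the low signal of NAI1 leaves the size of the difference uncertain. The Benjamini-Hochberg adjusted exact permutation p was 0.117 for 6 of them and 0.2 for PYK10 against JAL33. No pair could pass 0.05, since an exact p of 0.1 is the lowest for 3 arrays against 3. PYK10 and JAL33 differed in their change by 0.26 log2 units, and the groups overlapped in this difference (exact permutation p = 0.2, two-sided).

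**Figure D2:**
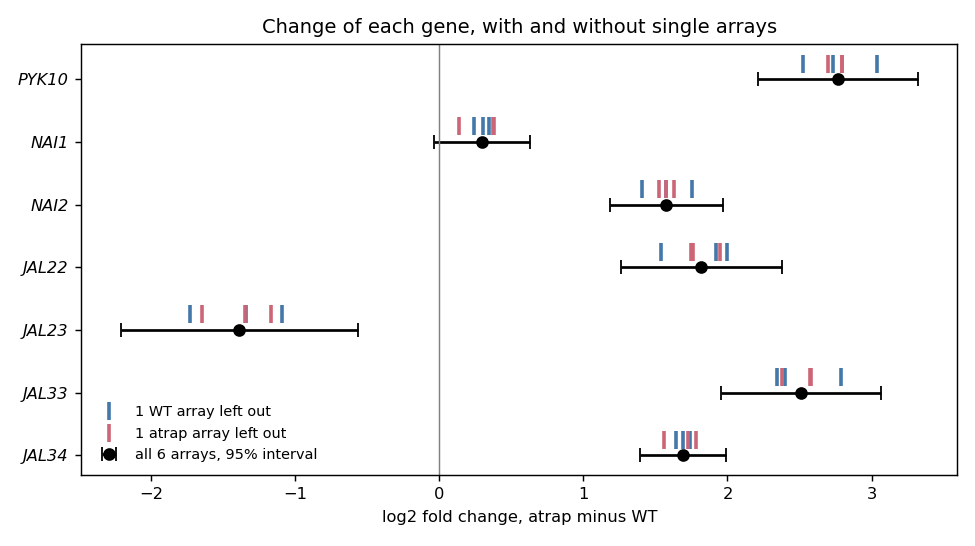
Log2 fold change of each gene, atrap minus WT (horizontal axis), with its 95% interval from limma (black), and the change when 1 WT array (blue) or 1 atrap array (red) was left out. The changes of PYK10, NAI2, JAL22, JAL33 and JAL34 stay above 1.40 with any 1 array left out, that of JAL23 lies between -1.73 and -1.09, and that of NAI1 between 0.14 and 0.38.

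**Figure D3:**
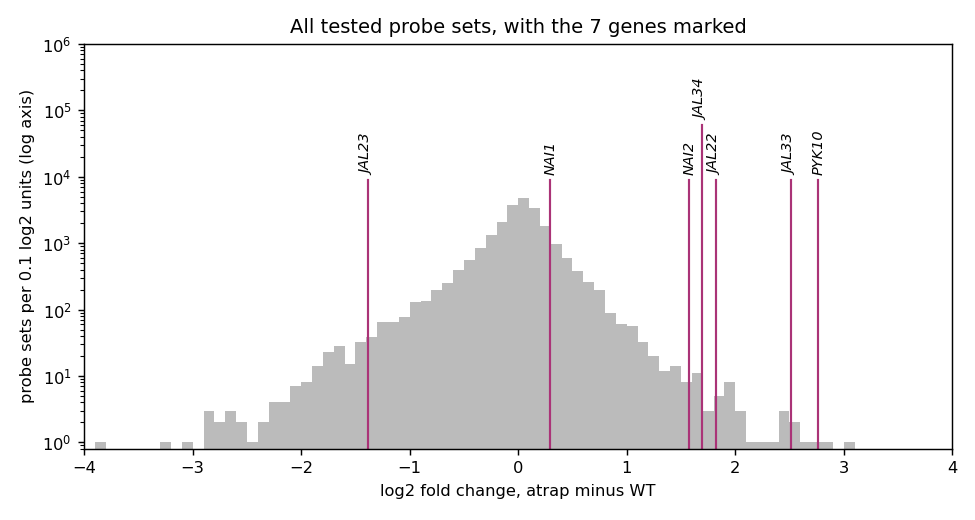
Number of tested probe sets (vertical, log axis) by log2 fold change, atrap minus WT (horizontal axis, bars 0.1 wide), with the 7 genes as vertical lines whose height has no meaning. PYK10 and JAL33 lie at the upper end of the distribution at 2.77 and 2.51, and NAI1 lies at 0.30, with 12.1% of probe sets above it.

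Within a genotype the genes varied in different ways. In WT, replicate 2 had the lowest value for 6 of the 7 genes, where it was the lowest WT array for 32.5% of all probe sets. WT replicate 1 was the highest for PYK10, NAI2, JAL22 and JAL33, at 0.55, 0.35, 0.35 and 0.55 above the WT mean. It was the highest WT array for 43.6% of all probe sets. JAL23 ran otherwise, with WT replicate 1 the lowest at -0.68 and WT replicate 3 the highest at 0.59. In the mutant, replicate 1 was the highest array for PYK10, NAI2, JAL33 and JAL34 and the lowest for JAL23 and NAI1. Over all probe sets it was the highest mutant array for 28.7% and the lowest for 29.0%. The range was larger in WT than in atrap for 5 of the 7 genes and for 57.0% of all probe sets. NAI1 and JAL34 had the larger range in atrap.

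**Figure D4:**
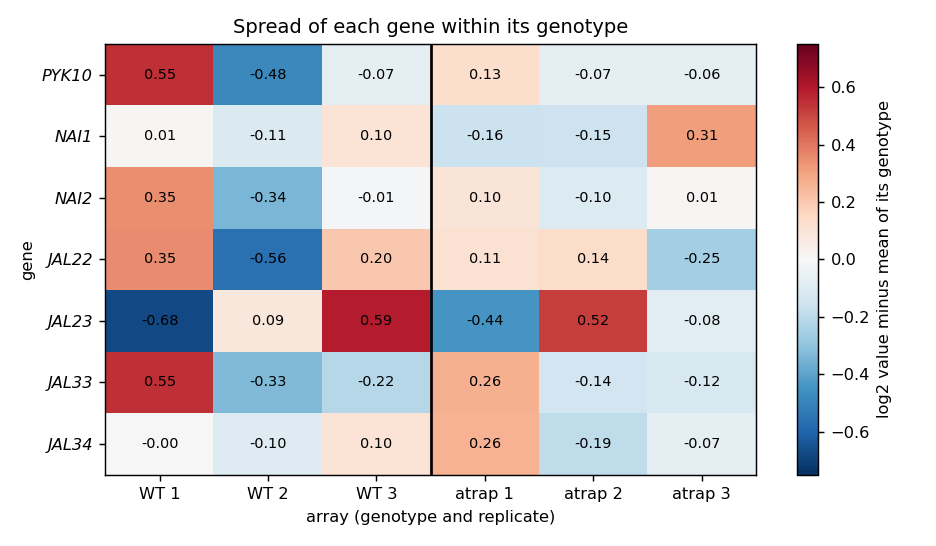
Log2 value of each gene (rows) on each array (columns) minus the mean of its genotype, in colour and figures. PYK10, NAI2, JAL22 and JAL33 are above their mean in WT replicate 1 and below it in WT replicate 2, and JAL23 has its lowest WT value in replicate 1 and its highest in replicate 3.

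Profiles over the 6 arrays were compared by the root mean square difference after each gene was centred on its own mean, a measure in which 0 means identical profiles. PYK10 and JAL33 were the closest pair of the 7 at 0.17, followed by NAI2 with JAL34 at 0.21 and NAI2 with JAL22 at 0.23. Outside the 7 genes, the 3 profiles nearest to PYK10 were those of AT3G14395, AT1G09500 and AT1G66760, at 0.40, 0.43 and 0.43, all farther from it than JAL33. Nearest to NAI2 were AT3G51870, AT3G21300 and Cpn60beta2, a subunit of the plastid chaperonin, at 0.08, 0.14 and 0.14. All of them were nearer to NAI2 than any other of the 7 genes was. AT3G51870 rose from 7.66 to 9.31 (log2 means, n = 3 each), a change of 1.64. Nearest to JAL23 were AT1G10340, AT1G19960 and AT1G65490, at 0.18, 0.20 and 0.21, with log2 changes of -1.54, -1.42 and -1.24. These values describe likeness in 6 arrays that differ by genotype, so the size of the change enters each of them. PYK10 had the 3rd highest change, so few probe sets could lie near it.

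The genes next to the 7 were read from their order in the gene table, within 8 protein-coding genes on each side. This window was chosen after the data had been seen. It held 32 other probe sets of 1 gene, of which 4 were higher and 3 lower. These 7 calls are 21.9% of the 32, against 13.1% over all probe sets, with changes from -1.12 to 0.81 and a median of 0.04. Next to PYK10, AT3G09250 changed by 0.05, while AT3G09200, 6 genes away, rose by 0.81 (limma, adjusted p = 0.750 and 0.0204). AT2G39320, between JAL22 and JAL23, read 4.02 in WT and 3.98 in atrap (log2 means, n = 3 each), a change of -0.04 (limma, adjusted p = 0.747). AT3G15910 near NAI2 and AT2G39240 near JAL22 each rose by 0.47 (limma, adjusted p = 0.0118 and 0.0136). On the far side of JAL22, SNZ, a floral repressor of the AP2 family, rose by 0.73, and beyond JAL23, AT2G39360 fell by 1.01 on the log2 scale (limma, adjusted p = 0.0297 and 0.0234). Beyond JAL34, UGT88A1, a glycosyltransferase gene, fell by 0.49 and AT3G16530 by 1.12 on the log2 scale (limma, adjusted p = 0.0351 and 0.00789). The 2 genes before NAI1, AT2G22750 and AT2G22760, read 3.83 and 4.13 in WT and changed by -0.08 and -0.07 (limma, adjusted p = 0.486 and 0.618). AT2G39320, AT3G15910, AT2G39240, AT2G22750 and AT2G22760 read below log2 6 on every array, where RMA values compress changes. Small measured differences there do not show unchanged transcript levels. The lectin and specifier genes of the cluster before JAL33, from NSP3 to MLP-300B, were not analysed here. Cross-hybridisation between neighbouring paralogs such as JAL22 and JAL23 was not tested.

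**Figure D5:**
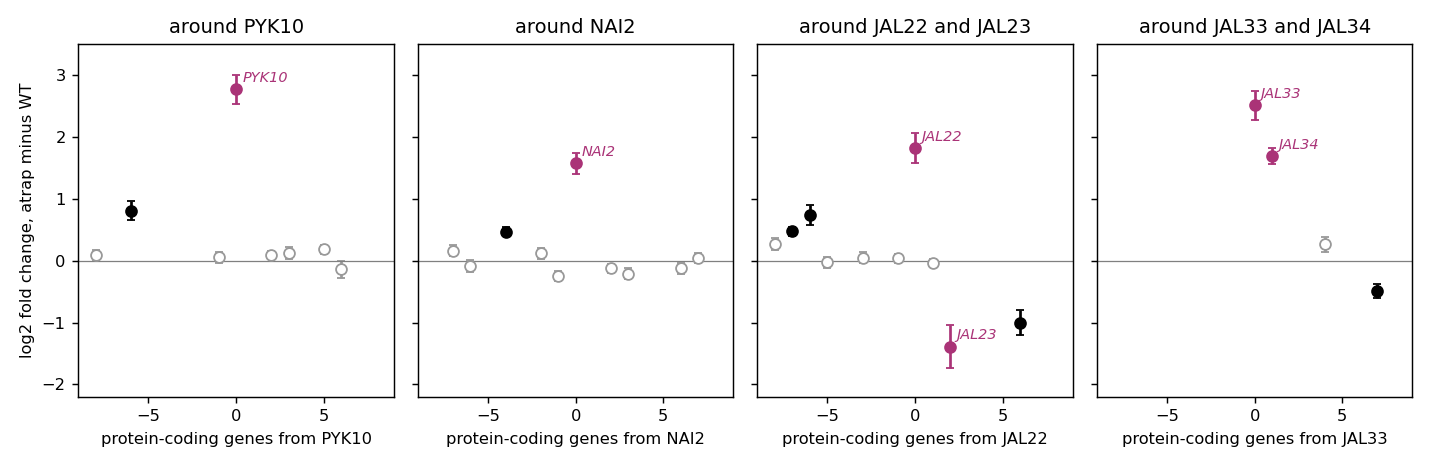
Log2 fold change, atrap minus WT, with its standard error (vertical axis) for genes in order around PYK10, NAI2, JAL22 with JAL23, and JAL33 with JAL34 (horizontal axis, number of protein-coding genes away). Purple points are the genes described here, black points are other genes past an adjusted p of 0.05 and open points the rest. The neighbours plotted lie between -1.01 and 0.81, and AT3G16530 at -1.12 lies 1 gene beyond the window drawn around JAL33.

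Genes known to act beside ER bodies were sparsely covered. Of 106 genes on 9 lists, 15 had a probe set of their own gene, and 1 of the 15 passed, against 13.1% of all probe sets. Indole glucosinolates are substrates of PYK10, and of 18 genes of their synthesis only UGT74B1, a glucosyltransferase, was measured. It read 9.60, 9.76 and 10.57 in WT and 9.16, 9.68 and 9.23 in atrap, a log2 change of -0.62 (limma, adjusted p = 0.164). On the list of aliphatic glucosinolate synthesis, BCAT4, an aminotransferase of methionine chain elongation, had a change of -0.93 and AT2G31790 one of -0.25 (limma, adjusted p = 0.0958 and 0.316), as the 2 measured of 14. All 3 glucosinolate genes measured shared with JAL23 the same order of arrays within each genotype, as did 3.33% of all probe sets. In it, WT replicate 3 and atrap replicate 2 were the highest and replicate 1 of each genotype the lowest. This order was picked after the data had been seen, and a link to JAL23 was not tested. For AT2G31790 it rests on WT values of 10.048 and 10.053 in replicates 2 and 3. None of the 7 genes of the PYK10 complex list, such as PBP1, and none of 11 myrosinase and specifier genes could be read from a probe set of 1 gene.

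On a list of 12 genes of ER protein folding and ER stress, 4 were measured, 2 of them chaperone genes and 2 transcription factor genes. ATERDJ3B, a co-chaperone, fell by 0.41 on the log2 scale and was the 1 that passed (limma, adjusted p = 0.0496). The calreticulin gene CRT1b had a change of -0.04, and the ER stress transcription factors BZIP60 and BZIP28 had changes of -0.91 and -0.28 (limma, adjusted p = 0.807, 0.0665 and 0.218). WT replicate 3 was the highest array for both transcription factor genes. It read 10.41 for BZIP60, against 9.25 and 9.64 in WT replicates 1 and 2, and 8.74 for BZIP28, against 8.23 and 8.28. These 4 genes had a median change of -0.35, against 0.03 over all probe sets.

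Jasmonate and wounding are known to raise leaf ER bodies, and 3 of 16 genes of these responses were measured. Of these, 0 passed by limma, against 13.1% of all probe sets, and so few genes do not show unchanged responses. PDF1.2, a defensin, had a log2 change of -0.29 (limma, unadjusted p = 0.0216, adjusted p = 0.0997). The touch- and wound-induced calmodulin-like gene CML38 had one of -1.35 (limma, adjusted p = 0.204). CML38 read 4.97, 5.16 and 7.58 in WT and 4.40, 4.58 and 4.69 in atrap (log2, replicates 1 to 3). For CML38 and PDF1.2 every atrap array was below every WT array, and groups did not overlap, in either direction, for 35.6% of all probe sets. THI2.1, a jasmonate-induced thionin, had a change of -0.12 with overlapping groups (limma, adjusted p = 0.571).

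PYK10 and NAI2 are root-abundant transcripts, so root markers were read as well. Only EXPA7 and EXPA18, expansins of root hairs, of 12 markers were measured. Their mean level was 5.47 to 5.57 in WT arrays and 5.59 to 5.64 in atrap arrays (log2). Both read below log2 6 on every array, where RMA values compress changes. EXPA7 read 5.13 to 5.22 in WT and 5.33 to 5.55 in atrap, with every atrap array above every WT array. The groups also did not overlap, in either direction, for 35.6% of all probe sets. The log2 change of EXPA7 was 0.24 (limma, unadjusted p = 0.0226, adjusted p = 0.102), and that of EXPA18 was -0.05 (limma, adjusted p = 0.765). The other 10 markers were not analysed here, and the part of root RNA in the rises was not tested.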

How the data were processed

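Leaf RNA of 3 WT and 3 atrap samples was hybridised to Affymetrix arrays. Per the submitters' processing notes, the authors made the deposited log2 values, 1 per probe set, with RMA. That they are on a log2 scale follows from their span of 3.12 to 15.01. No source used here gives the software or its version. Sample titles gave the groups and replicate numbers. After removal of 64 control probe sets, the remaining 22746 were fitted without any filter or added normalization (limma 3.58.1, R 4.3.3; two-sided moderated tests from lmFit and eBayes, with Benjamini-Hochberg adjustment over the whole table). By the platform annotation, 13513 probe sets belonged to 1 gene, 503 to several and 8730 to none listed. Of the 13513, 13436 were given their name in assembly TAIR10.1 through the gene identifier. No probe set of several genes named any of the 7.

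The genes, lists and tests were chosen with earlier results of these data known. All 7 genes are named. The list rule named up to 4 called members or, where none was called, the 2 smallest p, and other measured members and the neighbours are named although their values had been seen. For PYK10, NAI2 and JAL23, the 3 nearest profiles are named. The fit was tested on simulated data. Same-numbered arrays deviated together with correlations of 0.13, 0.02 and -0.15 over probe sets, so the numbers were not taken to pair samples. Alternatives were quantile normalization, a replicate block, centring on medians, removal of dim probe sets (below the 30th percentile or below log2 6), array weights, an intensity trend, an unmoderated test and leaving out arrays. Summaries and figures used Python 3.11.15 with pandas 2.3.3, numpy 2.4.6, matplotlib 3.10.9 and scipy 1.17.1.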

Additional observations from a re-analysis of the deposited data

How the results depend on the processing

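No change of the 7 genes reversed direction under the 15 alternatives run (13 for NAI1, which both filters on dim probe sets removed). The rises of PYK10, NAI2, JAL22, JAL33 and JAL34 passed in 14 of 15, and JAL23 in 10. The unmoderated test lost all 6 calls, at the same changes of 2.77 for PYK10, 1.57 for NAI2, 1.82 for JAL22, -1.39 for JAL23, 2.51 for JAL33 and 1.69 for JAL34, so that 0 of 7 passed and 48 of all probe sets. It shares no variance between probe sets and has few degrees of freedom by its construction.

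With 1 array left out, the change ran from 2.53 to 3.04 for PYK10, 0.14 to 0.38 for NAI1, 1.40 to 1.75 for NAI2, 1.54 to 1.995 for JAL22, -1.73 to -1.09 for JAL23, 2.34 to 2.78 for JAL33 and 1.56 to 1.78 for JAL34, and 5 to 6 of the 7 passed. Over all probe sets the count of 2981 was 5325 with array weights and 350 to 3863 with 1 array left out, the lowest when atrap replicate 1 was missing. Leaving out atrap replicate 3 gave 629 calls, WT replicate 2 gave 438 and WT replicate 3 gave 1260. The cause was not tested. With the replicate block, 6 of the 7 genes and 2101 probe sets passed, and it changed no call of the 7. Centring on medians gave 61.8% of calls higher, against 51.1% in the values as deposited. Low signal limits NAI1. Compression at low signal may understate the changes of NAI2 and of all 4 lectin genes, but this was not tested. JAL34 read above log2 6 on every array.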
